A study of Homo sapiens with 12 samples.

Results

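Chemokine and formyl peptide receptors were followed in U937 cells given decitabine (DAC), the retinoid all-trans retinoic acid (ATRA) or both drugs. The 9 receptor genes were CXCR1, CXCR2, CXCR4, CCR1, CCR2, CCR7, CX3CR1, FPR1 and FPR2, taken by symbol from a transcript table of 44786 gene symbols. They had 36 transcripts among the 197782 in the table, of which 20 had a read in some library and 16 had none. Receptors of this kind span the cell membrane, couple to inhibitory G proteins and steer leukocytes along gradients of chemokines or of formylated peptides from bacteria and mitochondria. CXCR1 and CXCR2 bind CXCL8 and are typical of neutrophils. CCR1, CCR2 and CX3CR1 are typical of monocytes, CCR7 guides dendritic cells and lymphocytes to lymph nodes, and CXCR4 holds blood cells in the bone marrow through CXCL12.

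U937 is an established myelomonocytic leukemia cell line that lacks the PML/RARA fusion. DAC is a nucleoside analog that is built into DNA and depletes DNA methyltransferases, and ATRA is the ligand of the retinoic acid receptors. The 4 groups held 3 libraries each: untreated cells, cells given 200 nM DAC, cells given 1 µM ATRA and cells given both (DAC + ATRA). DAC was added daily on 3 days with fresh medium. The labels put the untreated cells at 96 h and the treated cells at 72 h, whereas the study's methods give a harvest at 72 h. If the labels hold, time in culture and treatment cannot be told apart in comparisons with untreated cells or in the interaction term, which also uses them. The labels read as if ATRA were present throughout, whereas the study's methods place it 48 h after the first DAC dose. The labels give medium with 20% FCS and 5 ng/ml GM-CSF, the methods 10% FCS. The sources used here do not say whether the 3 libraries of a group came from separate cultures, so all p-values measure only the spread between these libraries of 1 cell line, which may be technical.

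RNA was depleted of ribosomal RNA and sequenced strand-specifically. The deposited values were reads per transcript divided by a size factor (normalized read counts), and 8042435 to 10683593 reads per library were recovered from them. Of the monocytic marker list, 6 of 10 genes averaged at least 10 normalized reads, led by MPO, while PTPRC was listed at 0 in every library. The summed level of that list was 54415 to 60852 in untreated cells, 25991 to 39588 with DAC, 32042 to 44047 with ATRA and 21311 to 22642 with both drugs. Most of it was MPO, and without MPO the list summed to 4863 to 5232, 5755 to 6938, 5529 to 6282 and 6937 to 7107 in the same order. Markers of other cell types moved with treatment as well. The T cell list, nearly all CD2, summed to 2.76 to 10.2 in untreated cells, 301 to 395 with DAC, 4.55 to 9.50 with ATRA and 137 to 181 with both drugs. The B cell list, mostly CD79A, lay at 485 to 557, 874 to 941, 504 to 719 and 1654 to 1781 in the same order. The fibroblast list, nearly all COL1A1, lay at 14.6 to 21.2, 211 to 274, 48.6 to 54.6 and 128 to 164. The epithelial list lay at 0 to 0.910, 9.73 to 25.9, 0 and 11.1 to 23.2, and the 3 erythroid markers were at 0 in every library. Mitochondrial transcripts took 36.3% to 42.5% of reads, with the lowest range (36.3% to 38.3%) in DAC + ATRA. The part of these shifts in the receptor levels was not tested. In bulk RNA, fewer cells carrying a transcript and less of it per cell cannot be told apart.

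How far each receptor could be measured depended on the counting. By default htseq-count, the counter named by the submitters, leaves a read that overlaps more than 1 annotated transcript uncounted. The mode used is not given in the sources used here. In that mode a transcript's value rests on the bases that no other listed transcript of its strand covers, called its own bases here. CXCR1 (all 2459 bases of its transcript) and CCR1 (all 2646) were fully countable. CXCR2 kept 2070 of 2853 bases, CCR2 1000 of 3531 and CCR7 574 of 2173. CXCR4 kept 104 of 1668 bases in its main transcript, CX3CR1 127 of 3151, and the usual FPR1 transcript (ENST00000304748) kept 0 of 1298. All 8 receptor transcripts without an own base had no read. The FPR2 transcript with the most reads kept 655 of 985. Of the longer FPR2 transcripts, ENST00000598776 kept 602 of 2621 bases, ENST00000340023 24 of 1938 and ENST00000598953 0 of 1544. A low value of CXCR4, CX3CR1, FPR1 or FPR2 therefore says little about the level of the whole gene.

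**Figure D1:**
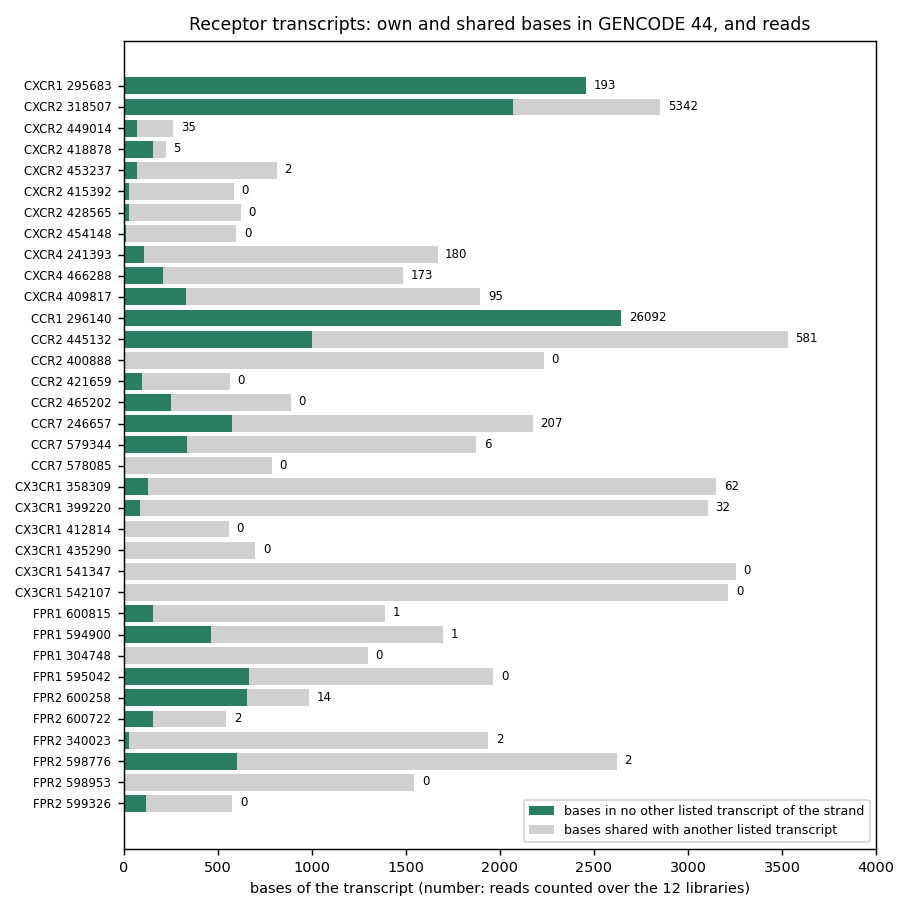
Bases of each receptor transcript in GENCODE 44 that no other listed transcript of the strand covers (green) and bases that are shared (grey), with the reads counted over the 12 libraries at the end of each bar. The last 6 digits name the transcript, and CCR2 ENST00000292301, which is not in GENCODE 44 and had no read, is not drawn. CCR1, with 2646 own bases, took 26092 reads, and the 8 transcripts without an own base took none.

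Transcripts were tested with limma on log2(normalized read count + 1) where at least 3 libraries reached 10 normalized reads, and were called at a Benjamini-Hochberg adjusted p under 0.01 over all 9016 protein-coding transcripts tested. Of the receptors, 7 transcripts of 6 genes passed this filter (CXCR1, CXCR2, CXCR4 with 2 transcripts, CCR1, CCR2 and CCR7), 13 transcripts had a read and did not pass, and CX3CR1, FPR1 and FPR2 had no transcript that passed. CXCR1 passed through the DAC + ATRA libraries alone, CCR7 through ATRA and DAC + ATRA, and CCR2 through the treated groups, so these 3 had to differ between groups once tested. With DAC, 4 of the 7 transcripts were called, all upregulated, where 30.6% of all tested transcripts were called as upregulated and 39.3% in either direction. With ATRA, 4 of 7 were upregulated against 6.47% of all tested transcripts (9.14% in either direction). With DAC + ATRA, 6 of 7 were upregulated against 32.6% (46.8% in either direction). None of the 7 was called as downregulated against untreated cells by limma, edgeR or DESeq2, and 1 value (CXCR4 ENST00000466288 with DAC) was lower at an unadjusted p under 0.05 with each of these tools. In these 3 comparisons limma called 8.7%, 2.67% and 14.2% of all tested transcripts as downregulated. Taken over the 9016 transcripts, the median log2 fold change was itself 0.22 for DAC and 0.20 for the combination under the deposited scaling, and 0.02 and 0.06 under TMM scaling, so changes of that size are not distinguished from the scaling.

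**Figure D2:**
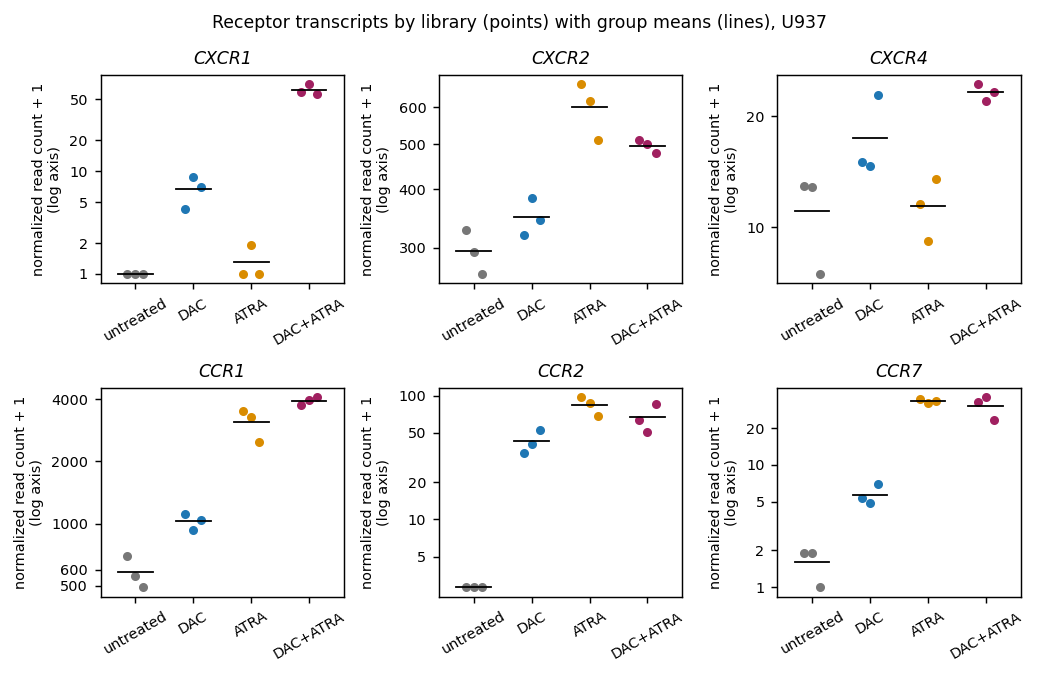
Normalized read count + 1 (log axis) of the main transcript of the 6 receptor genes tested, 1 point per library, with the mean of each group as a line (n = 3). CXCR1 was at 0 in the 3 untreated libraries and between 55.6 and 69.5 with DAC + ATRA, whereas CCR7 and CCR2 were already high with ATRA alone.

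CXCR1, a receptor for CXCL8 and CXCL6, was at 0 without treatment, low with DAC and high with both drugs. Its single transcript with reads (ENST00000295683, GRCh38 chr2:218162841-218166962, minus strand, 2 exons) had 0 reads in each of the 3 untreated libraries. The 3 DAC libraries had 3.24, 7.79 and 5.98 normalized reads (17 reads in all), and the 3 ATRA libraries had 0, 0.910 and 0 (1 read in all). The 3 DAC + ATRA libraries had 57.9, 69.5 and 55.6 (175 reads in all). Every DAC + ATRA library lay above every other library, and every DAC library lay above the untreated and ATRA libraries.

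The 250 bases before the annotated start of CXCR1 are shown with those of CXCR2 (RefSeq, GRCh38.p14, 5′ to 3′ on the strand of the gene), since these neighbouring genes share ligands and 1 was silent and 1 expressed without treatment, in cells given an agent that acts on cytosine methylation. Capitals mark CpG dinucleotides, the sites of that methylation. CXCR1 lies at chr2:218166963-218167212 on the minus strand and CXCR2 at chr2:218125778-218126027 on the plus strand.
CXCR1: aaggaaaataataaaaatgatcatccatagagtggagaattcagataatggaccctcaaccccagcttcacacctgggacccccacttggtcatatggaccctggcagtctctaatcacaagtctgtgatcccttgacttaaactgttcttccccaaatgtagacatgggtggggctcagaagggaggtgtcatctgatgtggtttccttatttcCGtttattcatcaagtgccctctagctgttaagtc
CXCR2: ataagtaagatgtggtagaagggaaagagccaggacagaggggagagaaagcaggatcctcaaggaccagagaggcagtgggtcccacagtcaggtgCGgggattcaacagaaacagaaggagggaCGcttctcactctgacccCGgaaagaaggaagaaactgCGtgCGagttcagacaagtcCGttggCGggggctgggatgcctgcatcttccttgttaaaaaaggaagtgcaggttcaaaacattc
The CXCR1 stretch holds 1 CpG and the CXCR2 stretch 7. Over 34796 promoter windows of the same length the median was 11, and 14.7% held no more CpG than CXCR1 and 43.8% no more than CXCR2. Methylation itself was not measured in these files.

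CXCR1 was upregulated by DAC + ATRA against untreated cells, 66.6-fold when the untreated group is set to 3 reads over its 3 libraries. The fitted log2 fold change was 5.95 (SE 0.40, adjusted p = 6.61e-11). DAC alone raised it 6.27-fold on the same floor (log2 fold change 2.67, SE 0.40, adjusted p = 9.93e-06). Both ratios to this floor leave out the counting error of the treated reads. ATRA alone gave a log2 fold change of 0.31 (95% interval -0.52 to 1.14, adjusted p = 0.688). DAC + ATRA exceeded DAC by a ratio of 10.6 (95% interval of the counts 6.44 to 18.6, adjusted p = 3.54e-06) and ATRA by a ratio of 198 (35.1 to 7877, adjusted p = 2.42e-10). The call against DAC was lost with a pseudocount of 0.1 (adjusted p = 0.0233). These count intervals cover counting error only.

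Whether both drugs together gave more than their separate changes was asked with the interaction term, the difference between the effect of DAC in the presence and in the absence of ATRA. On the log2 scale it was 2.96 for CXCR1 (SE 0.56, adjusted p = 0.00243). Of the 7 receptor transcripts, 2 had a called interaction, 1 in each direction (CXCR1 and CCR2). Of all tested transcripts 2.46% had one (0.787% above 0 and 1.67% below). CXCR1 had passed the filter through DAC + ATRA alone, which favours a value above 0. CCR2 had passed it through the treated groups alone, which favours a value below 0. Both calls, and the excess in normalized reads, are therefore given as a description. The CXCR1 interaction was not called with edgeR on the recovered reads (1.58, adjusted p = 0.884) or with a pseudocount of 0.1 (2.37, adjusted p = 0.444). DESeq2 (2.49, SE 1.77) gave no adjusted p for it. In normalized reads, the combined rise of 61.0 exceeded the sum of the separate rises by 55.0 (SE 4.51 from the spread of the 4 groups).

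CXCR2, the broader receptor for CXCL8 and the CXCL1 family, lies 25589 bases from CXCR1 (ENST00000318507, chr2:218126028-218137251, plus strand, 3 exons). It was well expressed without treatment, with 326, 293 and 262 normalized reads in the untreated libraries. The DAC libraries had 318, 383 and 343, and overlapped with the untreated ones. The ATRA libraries had 672, 618 and 509, and the DAC + ATRA libraries 509, 499 and 477, all above the untreated and DAC libraries.

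CXCR2 was upregulated by ATRA (log2 fold change 1.02, SE 0.12, adjusted p = 3.04e-06), to 600 ± 82.7 from 294 ± 32.0 (SD, n = 3 each). DAC + ATRA gave a log2 fold change of 0.76 against untreated cells (adjusted p = 2.46e-05) and 0.51 against DAC (adjusted p = 0.00516). The change with DAC alone was 0.24 (95% interval -0.01 to 0.50, adjusted p = 0.107). DAC + ATRA was 0.27 below ATRA on the log2 scale (95% interval -0.52 to -0.01), which missed the threshold (adjusted p = 0.0852) but passed it under TMM scaling (-0.38, adjusted p = 0.00395), edgeR and DESeq2. The change against DAC lost its call without DAC library 4 (0.45, adjusted p = 0.0345) or 6, or without any 1 of the 3 DAC + ATRA libraries (0.49 to 0.54), and with no filter on low values (0.51, adjusted p = 0.0102).

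Part of the sequence of these relatives is shared. Of the 50-base windows of the CXCR1 transcript, 125 of 2410 also occur in CXCR2, and 203 of 2804 windows of CXCR2 occur in CXCR1, the pseudogene CXCR2P1 or 1 further gene. The ATRA libraries, where CXCR2 was highest, held 1 CXCR1 read. The minor CXCR2 transcript ENST00000449014, on 71 own bases, had 1 or 2 reads in the untreated libraries, 1 to 4 with DAC, 2 to 4 with ATRA and 4 to 6 with both drugs. ENST00000418878 had 5 reads in all and ENST00000453237 had 2.

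CXCR4, the receptor for CXCL12, stood on few reads. Its main transcript (ENST00000241393, chr2:136114349-136118149, minus strand, 2 exons) had 11.9, 11.8 and 6.46 normalized reads in untreated cells and 14.1, 13.6 and 21.9 with DAC. It had 10.6, 8.19 and 12.5 with ATRA and 23.5, 21.1 and 22.2 with DAC + ATRA. The DAC + ATRA libraries lay above the untreated and ATRA libraries and overlapped with DAC.

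The main CXCR4 transcript was called as upregulated by DAC + ATRA against untreated cells (log2 fold change 1.11, SE 0.31, adjusted p = 0.00434) and against ATRA (1.04, SE 0.31, adjusted p = 0.00894). Of the 7 receptor transcripts 2 were called against ATRA, this one and CXCR1, which is near the background of 34.8% of all tested transcripts called (25.9% as higher). Both CXCR4 calls were lost with edgeR (adjusted p = 0.0122 and 0.0178), DESeq2 (0.0421 and 0.0617) and TMM scaling (0.0116 and 0.0191). Leaving out untreated library 3 or any DAC + ATRA library also ended the call against untreated cells (0.85 to 1.15, adjusted p = 0.0114 to 0.0339). The call against ATRA was lost without untreated library 2, DAC library 4, ATRA library 7 or 8, or any DAC + ATRA library (0.90 to 1.08, adjusted p = 0.0103 to 0.0412).

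A second CXCR4 transcript, ENST00000466288, with 209 own bases, had 15.6, 10.01 and 13.9 normalized reads in untreated cells, 7.57, 6.82 and 6.97 with DAC, 18.0, 15.5 and 24.1 with ATRA and 17.2, 14.7 and 16.1 with DAC + ATRA. Its DAC libraries lay below all others, at a log2 fold change of -0.78 against untreated cells (adjusted p = 0.0302), and its difference between DAC + ATRA and DAC was 1.06 (adjusted p = 0.0130). Neither passed the threshold. ENST00000409817, on 331 own bases, had 2 to 15 reads per library. Summed over the 3 transcripts, CXCR4 was at 31.5 ± 2.97 in untreated cells, 29.0 ± 5.05 with DAC, 37.3 ± 4.56 with ATRA and 47.4 ± 5.77 with both drugs (SD, n = 3 each). The summed log2 fold change of 0.57 for DAC + ATRA missed the threshold (adjusted p = 0.0224), and that for DAC was -0.12, the reverse of the main transcript's 0.68.

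CCR1, a receptor for CCL3, CCL5 and related chemokines, had the highest level among the receptors. Its transcript (ENST00000296140, chr3:46201711-46208313, minus strand, 2 exons) took 26092 of the 33027 reads counted on the 9 genes. The untreated libraries had 699, 554 and 491 normalized reads and the DAC libraries 1110.1, 935 and 1042. The ATRA libraries had 3511, 3298 and 2482 and the DAC + ATRA libraries 3756, 3965 and 4084. The 4 groups did not overlap, in the order untreated, DAC, ATRA and DAC + ATRA.

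CCR1 lies 145797 bases from CCR2 in a cluster of receptor genes on chromosome 3. The 250 bases before their starts (RefSeq, GRCh38.p14, CpG in capitals) are shown because both genes responded to each drug, from a high and from a nearly absent starting level. CCR1 lies at chr3:46208314-46208563 on the minus strand and CCR2 at chr3:46353861-46354110 on the plus strand.
CCR1: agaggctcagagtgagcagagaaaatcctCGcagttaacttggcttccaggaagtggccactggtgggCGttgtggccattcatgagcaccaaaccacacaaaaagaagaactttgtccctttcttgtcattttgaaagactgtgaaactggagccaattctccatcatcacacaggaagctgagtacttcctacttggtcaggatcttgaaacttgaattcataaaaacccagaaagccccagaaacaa
CCR2: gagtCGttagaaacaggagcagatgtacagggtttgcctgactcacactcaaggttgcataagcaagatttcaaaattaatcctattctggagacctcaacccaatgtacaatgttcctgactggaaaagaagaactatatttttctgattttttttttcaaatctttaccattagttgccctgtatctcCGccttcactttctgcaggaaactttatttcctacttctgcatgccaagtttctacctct
Each of these stretches holds 2 CpG, and 22.9% of the 34796 promoter windows hold as few or fewer. On either strand, the letters TTCNNNGAA, as bound by STAT factors, occur in the CCR1 stretch and in 6.57% of all promoter windows. The letters AGGTCA (the core bound by nuclear receptors such as RARA, in 12.02% of windows), GAGGAA (as bound by PU.1, 23.6%) and CCGGAAG (ETS factors, 8.50%) occur in none of the 4 stretches shown. A match or its absence describes these letters in this window only.

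CCR1 was upregulated in each comparison with untreated cells. The log2 fold change was 0.83 with DAC (SE 0.13, adjusted p = 2.15e-05), 2.41 with ATRA (SE 0.13, adjusted p = 2.23e-11) and 2.77 with DAC + ATRA (SE 0.13, adjusted p = 3.05e-13). DAC + ATRA exceeded DAC by 1.94 (SE 0.13, adjusted p = 1.04e-09). Against ATRA the difference was 0.36 (95% interval 0.08 to 0.64) and missed the threshold (adjusted p = 0.0313). The interaction was -0.47 on the log2 scale (SE 0.19, adjusted p = 0.181), and on the linear scale the combined rise differed from the sum of the separate rises by 391 normalized reads (SE 338).

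CCR2, the CCL2 receptor of classical monocytes, was close to absent in untreated U937 and appeared with each drug. Its transcript (ENST00000445132, chr3:46354111-46360940, plus strand, 2 exons) had 1.84, 1.82 and 1.85 normalized reads in the untreated libraries, which is 2 reads in each. The DAC libraries had 33.5, 39.9 and 51.8, the ATRA libraries 96.1, 85.6 and 67.4, and the DAC + ATRA libraries 62.4, 49.5 and 85.3. Every treated library lay above the untreated ones, and DAC + ATRA overlapped with both single treatments.

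CCR2 rose with DAC by a ratio of 22.9 (95% interval of the counts 10.2 to 63.5), with ATRA by 44.6 (20.2 to 123) and with DAC + ATRA by 35.2 (15.9 to 97.1). The fitted log2 fold changes, which understate changes of low transcripts, were 3.89 (adjusted p = 4.90e-11), 4.87 (7.87e-12) and 4.52 (3.38e-12). DAC + ATRA differed from DAC by 0.63 (95% interval 0.11 to 1.15, adjusted p = 0.0930) and from ATRA by -0.35 (95% interval -0.88 to 0.17, adjusted p = 0.270), neither past the threshold. The interaction was -4.25 (SE 0.35, adjusted p = 3.50e-07), so the rise with both drugs was smaller than the separate changes multiplied. In normalized reads, the combined rise minus the sum of the separate rises was -57.2 (SE 14.4). The other 4 CCR2 transcripts had no read.

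CCR7, the receptor for CCL19 and CCL21, followed ATRA. Its main transcript (ENST00000246657, chr17:40553769-40565472, minus strand, 3 exons) had 0.919, 0.910 and 0 normalized reads in untreated cells (2 reads in all) and 4.32, 3.90 and 5.98 with DAC (14 reads). The ATRA libraries had 33.8, 30.9 and 32.5 (105 reads) and the DAC + ATRA libraries 31.6, 34.7 and 22.2 (86 reads). The ATRA and DAC + ATRA libraries overlapped, and both groups lay above DAC, which lay above untreated cells.

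CCR7 was upregulated by ATRA by a ratio of 52.9 (95% interval of the counts 14.3 to 442, log2 fold change 4.44, adjusted p = 5.82e-09). With DAC + ATRA the ratio was 49.1 (13.2 to 412, log2 fold change 4.28, adjusted p = 1.52e-09). DAC alone gave a ratio of 7.74 (1.78 to 70.2, log2 fold change 1.88, adjusted p = 0.000142), a call that DESeq2 did not make (2.78, adjusted p = 0.0298). DAC + ATRA exceeded DAC by a ratio of 6.34 (3.58 to 12.1, adjusted p = 3.39e-05), a call lost with a pseudocount of 0.1 (adjusted p = 0.0147). The difference between DAC + ATRA and ATRA was -0.15 (95% interval -0.88 to 0.58, adjusted p = 0.755), and it was 0.033 without DAC + ATRA library 12. The interaction was -2.03 (SE 0.50) and missed the threshold (adjusted p = 0.0181). The second transcript with reads, ENST00000579344, had 6 reads, all in ATRA or DAC + ATRA libraries.

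**Figure D3:**
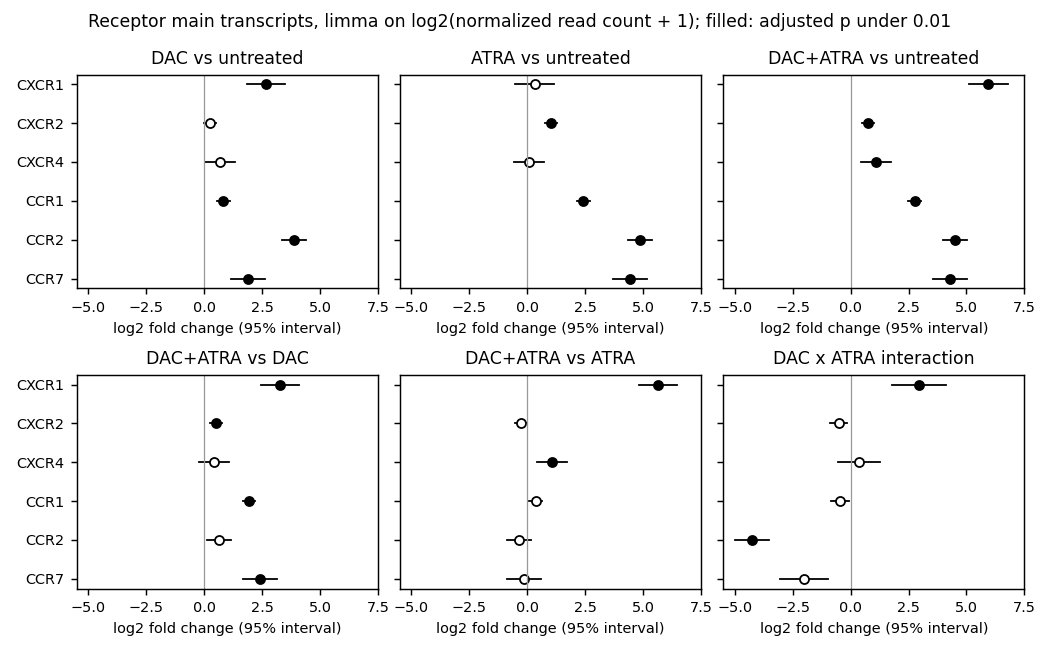
Log2 fold changes of the main transcripts of the 6 receptor genes tested (points) with 95% intervals (lines) in the 5 comparisons and for the interaction of DAC and ATRA, from limma on log2(normalized read count + 1). Filled points had an adjusted p under 0.01. CXCR1 lies at 5.64 in DAC + ATRA against ATRA, where CCR1, CCR2, CCR7 and CXCR2 lie between -0.35 and 0.36, and the interaction is 2.96 for CXCR1 and -4.25 for CCR2.

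Against DAC, 4 of the 7 receptor transcripts were higher with DAC + ATRA (CXCR1, CXCR2, CCR1 and CCR7), where 6.08% of all tested transcripts were higher and 11.3% were called in either direction. Of these 4 transcripts, CXCR1 had passed the filter through DAC + ATRA alone and CCR7 through ATRA and DAC + ATRA. The count fell to 2 with a pseudocount of 0.1. The comparisons with DAC + ATRA share the same 3 libraries and are not independent of each other.

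Mean levels of the 6 receptors tested were also set side by side per kilobase of own bases. In untreated cells CCR1 stood at 220 ± 40.3 normalized reads per kilobase, CXCR2 at 142 ± 15.5 and the main CXCR4 transcript at 96.9 ± 30.1, with CCR2 at 1.84 ± 0.0135, CCR7 at 1.06 ± 0.920 and CXCR1 at 0 (SD, n = 3 each). With DAC + ATRA, CCR1 reached 1487 ± 62.7, CXCR2 239 ± 7.90, CXCR4 214 ± 11.8, CCR2 65.7 ± 18.1, CCR7 51.5 ± 11.3 and CXCR1 24.8 ± 3.03. The CXCR4 value rests on 104 own bases and reads of 50 bases, so its place beside CXCR2 is not established. In untreated cells the means of CCR2 and CCR7, on 6 and 2 reads, differed by less than the SD of CCR7, so their order there is not established. With both drugs they differed by less than the SD of CCR2. No test between genes was made.

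CX3CR1, the receptor for the membrane-bound chemokine CX3CL1, did not reach the filter in any single transcript. ENST00000358309 (chr3:39263495-39281735, minus strand) had 2 or 3 reads in each untreated library, 2 to 4 with DAC, 2 to 10 with ATRA and 9 to 12 with both drugs. ENST00000399220 had 2 or 3, 1 or 2, 0 to 4, and 4 or 5 reads. Summed over both, the levels were 4.59 ± 0.0337 in untreated cells, 4.72 ± 0.991 with DAC, 6.48 ± 3.93 with ATRA and 15.2 ± 2.23 with both drugs (SD, n = 3 each). The DAC + ATRA libraries lay above the untreated and DAC libraries.

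With transcripts summed by symbol, an alternative to the main test, CX3CR1 was upregulated by DAC + ATRA against untreated cells (log2 fold change 1.52, SE 0.37, adjusted p = 0.00156). It was also higher than with DAC (1.51, adjusted p = 0.00613) and with ATRA (1.24, adjusted p = 0.00965). Of the 7889 symbols tested in this way, 35.1%, 6.69% and 28.4% were higher in these 3 comparisons. DAC alone gave 0.02 and ATRA alone 0.29 (adjusted p = 0.970 and 0.682), and the interaction was 1.22 (SE 0.53, adjusted p = 0.220). The sum rests on 210 own bases and 94 reads. It reached 10 normalized reads in the 3 DAC + ATRA libraries and 1 ATRA library only, so it passed the filter through the group where it is high, and these calls are given as a description.

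FPR1 and FPR2, the receptors for formylated peptides, were at or near 0. FPR1 had 2 reads in all, both in DAC + ATRA libraries, and none of its 667 own bases in ENST00000595042 gave a read. FPR2 had 4 reads in untreated cells, 8 with DAC, 3 with ATRA and 5 with both drugs, of which 14 fell on ENST00000600258. Neither gene passed the filter, so differences between groups were not tested. Of 936 windows of 50 bases in that FPR2 transcript, 14 also occur in FPR3.

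**Figure D4:**
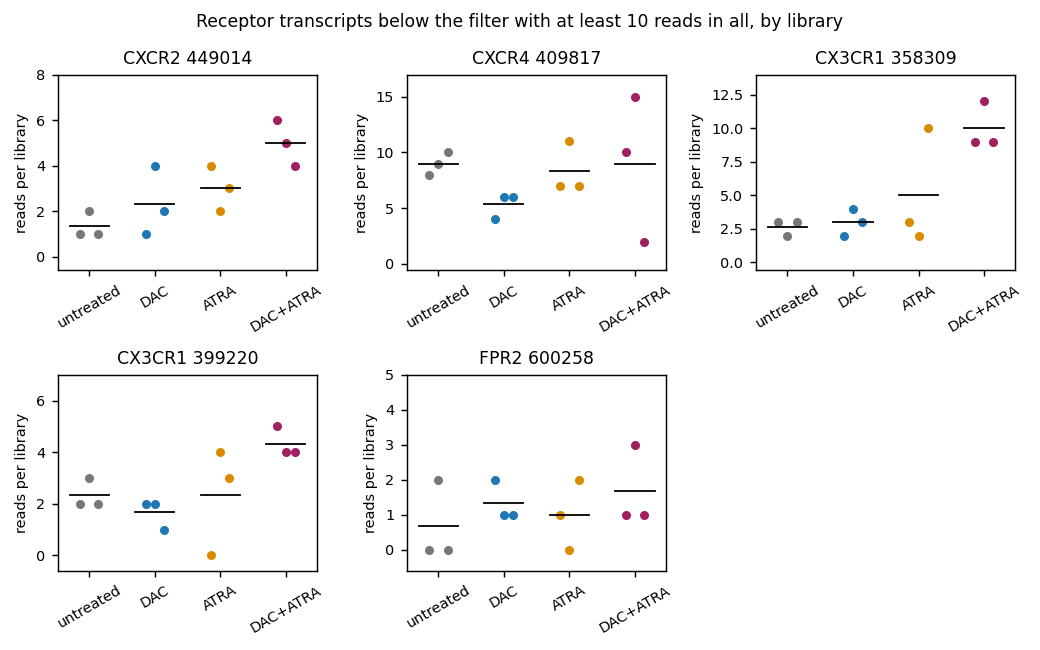
Reads per library of the 5 receptor transcripts that had at least 10 reads in all and did not pass the filter (points), with the mean of each group as a line (n = 3). The last 6 digits name the transcript, and the y axes differ. CX3CR1 ENST00000358309 had 9 to 12 reads per library with DAC + ATRA against 2 or 3 in untreated cells, and FPR2 stayed at 3 reads or fewer in every library.

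Of 16 further chemokine receptor genes, 6 were tested, and 6 were upregulated by DAC, 4 by ATRA and 6 by DAC + ATRA, where 33.4%, 7.13% and 35.1% of 7620 symbols were (8.82%, 3.02% and 14.7% were downregulated). Their median log2 fold changes were 2.35, 1.56 and 3.43, beside 0.24, 0.00 and 0.22 over all symbols. CCRL2, an atypical receptor that binds chemerin, had the lowest log2 fold change with DAC + ATRA, 2.38 (adjusted p = 9.69e-06). Apart from ACKR3, their means in untreated cells were under 10 normalized reads, so that the filter had been passed through treated groups.

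Of 10 receptors for other chemoattractants, 6 were tested. DAC upregulated 4 and downregulated 1, ATRA upregulated 3, and DAC + ATRA upregulated 5, with medians of 2.03, 0.80 and 1.76. Over all symbols, 33.4% were upregulated and 8.82% downregulated by DAC, 7.13% upregulated by ATRA and 35.1% by both drugs, with medians of 0.24, 0.00 and 0.22. C5AR2, a receptor for complement C5a, had the highest change for the combination (4.08 on the log2 scale, adjusted p = 7.89e-15), rising to 512 ± 29.0 from 29.6 ± 5.73 normalized reads (SD, n = 3 each). LTB4R2, a low-affinity leukotriene B4 receptor, had the lowest, 0.22 (adjusted p = 0.354).

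Most ligands of the receptors were below the filter. Of 24 ligand genes 4 were tested, and DAC upregulated 3, ATRA 0 and DAC + ATRA 2, with medians of 1.33, -0.05 and 1.74. These counts stand beside 33.4%, 7.13% and 35.1% of all symbols, and nothing is read from a count of 4 genes. With ATRA, 1 of the 4 (CXCL8) had an unadjusted p under 0.05 by limma, and edgeR and DESeq2 also called 0. CAMP, whose peptide LL-37 binds FPR2, had the highest change for the combination (4.07 on the log2 scale, adjusted p = 8.35e-12, 11.01 ± 0.838 to 201 ± 6.45 normalized reads, SD, n = 3 each). CXCL2, a CXCR2 ligand, had the lowest, 0.67 (adjusted p = 0.0147). CXCL8, the shared ligand of CXCR1 and CXCR2, was singled out after its values were seen. It rose with DAC + ATRA by 2.11 (adjusted p = 5.58e-06), from 147 ± 51.6 to 628 ± 136 normalized reads (SD, n = 3 each).

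Of 31 genes that carry the receptors' signal (G protein subunits, kinases, arrestins, regulators of G protein signalling), 19 were tested. DAC upregulated 11 and downregulated 1, ATRA upregulated 4 and downregulated 1, and DAC + ATRA upregulated 12, with medians of 0.54, 0.12 and 0.74. Of all symbols, 33.4%, 7.13% and 35.1% were upregulated and 8.82%, 3.02% and 14.7% downregulated in these comparisons, and the medians were 0.24, 0.00 and 0.22. GNG2, a G protein gamma subunit, had the highest change for the combination (3.85 on the log2 scale, adjusted p = 9.16e-10), from 4.27 ± 1.88 to 72.2 ± 7.06 normalized reads (SD, n = 3 each). GRK6, a kinase that desensitizes these receptors, had the lowest, -0.88 (adjusted p = 0.0679).

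**Figure D5:**
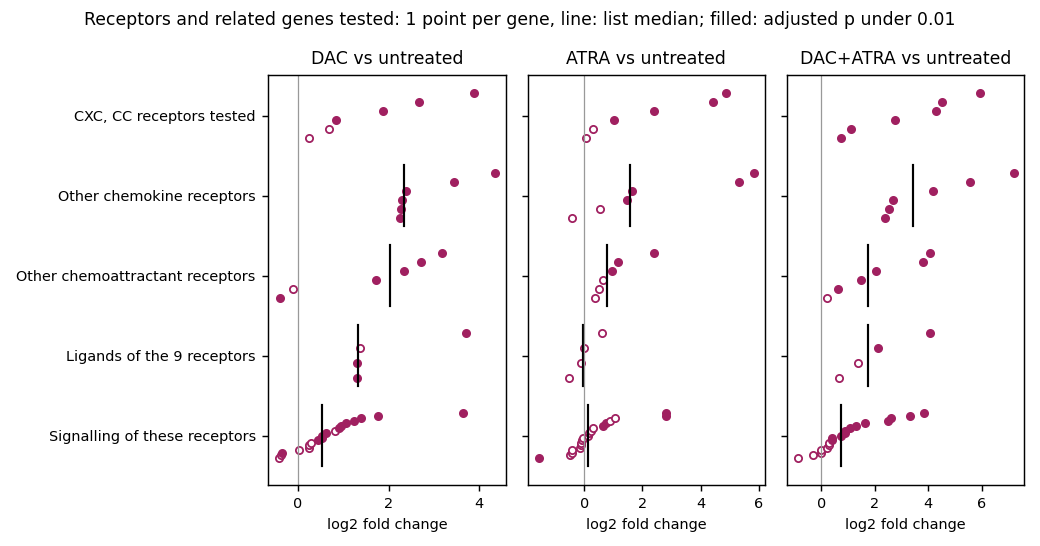
Log2 fold changes of the main transcripts of the receptors tested and of the tested genes of the 4 related lists (1 point per gene) with DAC, ATRA and DAC + ATRA against untreated cells. Lines mark the median of each list, and filled points had an adjusted p under 0.01. The 6 further chemokine receptors lie at 2.38 or above with DAC + ATRA, whereas ligands and signalling genes reach down to 0.67 and -0.88.

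Among all tested transcripts of other genes, those most like each receptor were found by Pearson correlation of log2(normalized read count + 1) over the 12 libraries. These values share the libraries and their 4 groups, and describe likeness only. CXCR1 was most like G0S2 (r = 0.996), KNDC1 (0.996) and CEACAM1 (0.992), which averaged 233, 88.6 and 82.4 normalized reads with DAC + ATRA and 0 in untreated cells. CXCR2 was most like PTPN7 (0.971), IL31RA (0.960) and SOX4 (0.959). For CXCR4 they were RFFL (0.934), ZBTB47 (0.914) and ZNF486 (0.910), and for CCR1 SLC2A5 (0.992), TMEM106A (0.991) and THBD (0.989). CCR2 was most like KIAA1462 (0.984), GPR82 (0.980) and PIK3AP1 (0.978), and CCR7 was most like CD300LB (0.992), MECOM (0.987) and CDH23 (0.986).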

How the data were processed

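RNA of 12 U937 libraries was sequenced as 50-base read pairs. Per the labels and methods, reads were checked with FastQC, aligned to hg38 with STAR, counted with htseq-count and scaled with DESeq2; versions are not given in the sources used here. The authors deposited 1 table of signal per transcript, reads divided by a size factor (0.809 to 1.20). Dividing by each library's smallest step gave whole reads for 100% of values (tolerance 0.1 read), 8042435 to 10683593 per library (median 9874622); 3 reads, the most that a count of 0 allows at 95%, equal 2.50 to 3.71 normalized reads. Columns are numbered 1 to 12 and were mapped to groups by their names; these numbers name the libraries here.

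Transcripts were matched to GENCODE 44 (174768 of 197782). Protein-coding transcripts with at least 10 normalized reads in at least 3 libraries (9016, of which 232 were taken as coding by symbol alone) were tested with limma 3.58.1 (trend, robust) on log2(normalized read count + 1), all 12 libraries in 1 fit, two-sided, with Benjamini-Hochberg adjustment. The filter admits transcripts through the groups where they are high. With 3 against 3 libraries an exact permutation test cannot give a p below 0.1, so none was used. Ratios of reads have exact conditional 95% intervals (counting error only). Alternatives were edgeR 4.0.16 and DESeq2 1.42.0 on recovered reads, other scalings, pseudocount, filters, feature sets and thresholds, and leaving out each library. The methods were tested on simulated data. Shared 50-base windows were counted against GENCODE 44 transcripts, and promoter sequences came from RefSeq (8 of 9 receptors have an entry; CCR7 does not). The genes named were every receptor transcript with a read, the highest and lowest member of each list for DAC + ATRA against untreated cells, and the 3 transcripts most like each receptor; the values of 1 such list member are not reported here. The receptors, lists and tests were chosen with earlier results of these data known.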

Additional observations from a re-analysis of the deposited data

Results flagged for a closer look

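Of the receptors, 2 had effects of DAC that differed between cells with and without ATRA, by the interaction term of limma. For CXCR1 the interaction was 2.96 on the log2 scale (higher with both drugs than the separate changes give). For CCR2 it was -4.25 (lower than the separate changes give), and each DAC, ATRA and DAC + ATRA library had more CCR2 reads than any untreated library. The CCR2 interaction kept its sign and its call under every alternative run, between -4.79 and -4.06. That of CXCR1 lost its call with edgeR and with a pseudocount of 0.1, and DESeq2 (2.49, SE 1.77) gave it no adjusted p. In the untreated group CXCR1 had 0 reads and CCR2 had 6, so both values depend on the pseudocount. The filter on low values had admitted CXCR1 through the DAC + ATRA libraries alone, which favours an interaction above 0. It had admitted CCR2 through the treated groups alone, which favours an interaction below 0. Neither sign was therefore a free outcome, and both interactions are given as a description.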

How the results depend on the processing

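No paired analysis was possible because the columns carry the numbers 1 to 12 and not the replicate numbers of the labels. Of the receptor log2 fold changes under the alternatives, 903 kept direction and side of the threshold, 4 interactions under DESeq2 kept direction but had no adjusted p, 38 lost and 4 gained a call, and 4 reversed: CXCR4 with DAC summed by symbol (-0.12), CXCR4 with ATRA without untreated library 3 (-0.19) or ATRA library 9 (-0.060; range over the left-out libraries -0.19 to 0.22), and CCR7 in DAC + ATRA against ATRA without DAC + ATRA library 12 (0.033; range -0.28 to 0.033). None of these 4 was called in the main test.

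The number of receptor transcripts called against DAC fell from 4 to 2 with a pseudocount of 0.1. Against ATRA it fell from 2 to 1 with library size scaling, a pseudocount of 0.1 or no filter, and was 1 to 2 over the left-out libraries (1 without untreated library 2, DAC library 4, ATRA library 7 or 8, or DAC + ATRA library 10, 11 or 12). For the interaction it was 1 with edgeR, with DESeq2 (no adjusted p for CXCR1), with a pseudocount of 0.1 and with edgeR without DAC library 6, an alternative chosen after seeing the data because the step of that library is close to 1. In that fit CCR7 with DAC also lost its call (2.34, adjusted p = 0.0271).

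Over all transcripts, testing every biotype gave 6485 calls with DAC (main 3547), 1351 with ATRA (824), 8065 with DAC + ATRA (4215), 1699 against DAC (1022) and 5688 against ATRA (3136). A threshold of 0.05 gave 1317 with ATRA, 1618 against DAC and 456 for the interaction (main 222), which DESeq2 put at 341 and which ranged from 148 to 483 over the left-out libraries (483 without ATRA library 9). Where a call or count changed, the cause was not tested beyond the fewer or more features or libraries that an alternative holds. Own bases limit CXCR4, CX3CR1, FPR1 and FPR2.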

Other observations

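The chromosome 3 receptor cluster was looked at as a neighbourhood, after its values were seen. Within 500000 bases of CCR1, 5 other genes were tested, and 5 were upregulated by DAC, 3 by ATRA and 5 by DAC + ATRA, where 33.4%, 7.13% and 35.1% of all tested symbols were. XCR1, the receptor for XCL1, had means of 1.23 normalized reads in untreated cells, 21.8 (DAC), 2.12 (ATRA) and 36.2 (DAC + ATRA). RTP3, a gene of the receptor transporter family that is not a chemokine receptor, had means of 0, 89.6, 0 and 50.3. Its value lay at 0 in untreated and ATRA libraries alike, whereas CCR2, in the same stretch, had a higher mean with ATRA than with DAC (83.0 against 41.7; this difference was not tested).

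Around CXCR1, 6 genes within the same distance were tested, and 2 were upregulated and 1 downregulated by DAC + ATRA: TNS1 and CXCR2 rose (log2 fold change 0.56 and 0.76) and USP37 fell by 0.62 on the log2 scale. These counts are near the shares over all symbols, 35.1% upregulated and 14.7% downregulated. Near CXCR4, both tested neighbours fell with DAC + ATRA, MCM6, a subunit of the replicative helicase, by 1.26 and DARS, an aspartyl-tRNA synthetase, by 1.01 on the log2 scale, where 14.7% of all symbols were downregulated. These neighbourhoods were not tested against other stretches of the genome.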
